A study of Saccharomyces cerevisiae with 15 samples.

Results

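The wild types BY4742 and BY4741 of Saccharomyces cerevisiae were compared through 3 arrays of each strain, 6 of the 15 arrays of a study of the THSC/TREX-2 mRNA export complex. Every gene with a probe set was kept, those of low intensity included, which gave 5449 genes. Total RNA came from cells in mid-log phase in the rich medium YPD and was hybridised to Affymetrix yeast arrays, 1 RNA sample per array. The 3 arrays of each strain are labelled as biological replicates, with no word on separate cultures. The p-values of the main fit therefore cover only the spread among arrays of the same strain, pooled over the 5 strains of the study. This spread may be technical.

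Both strains carry the alleles his3∆1, leu2∆0 and ura3∆0. BY4741 has in addition met15∆0, a deletion of the gene named MET17 in the annotation used here, and BY4742 has lys2∆0. The labels write MATa for both strains and also for the other strains of the study, sac3∆ in the BY4741 background and sus1∆ and thp1∆ in the BY4742 background, each with a KanMX replacement of the named gene. Since the wild types differ in several alleles at once and each is a single laboratory strain, the effects of mating type, of MET17 and of LYS2 cannot be told apart for any gene outside these loci. Any difference between the strains in culture, RNA preparation or hybridisation cannot be told apart from these effects either.

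Haploid yeast cells are of mating type a or α, set by the information at the MAT locus. In α cells the α1 protein activates the α-specific genes and α2 represses the a-specific genes, while in a cells the a-specific genes are expressed by default. Each type secretes a pheromone that the receptor of the other type detects, and a G protein and MAP kinase cascade then induces the genes of mating. MET17 encodes the enzyme that incorporates sulfide into homocysteine, and LYS2 an enzyme of the lysine pathway, so both deletions are used as auxotrophic markers.

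The arrays of a strain did not repeat equally well. Spearman's rho across genes between arrays was 0.998 in BY4742 and 0.969 to 0.976 in BY4741, and the median SD of a gene on the log2 scale was 0.0534 and 0.155. BY4741 replicate 3 had 862 empty cells, and the other wild-type arrays had 3 to 15. In the study's methods outliers count as missing, but the origin of each empty cell was not tested. Of 5449 genes, 799 were empty in this array. These were of higher level in the other BY4741 arrays than the rest (median 1864 against 1316 units). Among them were 9 of the 25 genes called lower in BY4742 and 1 of the 63 called higher. For SRB4, whose probe sets at both ends gauge RNA integrity, the 3′ over 5′ ratio was 6.51 ± 0.468 (SD, n = 3) in BY4741 and 4.40 ± 0.197 in BY4742 without overlap. The same ratio was 1.23 to 1.34 and 1.18 to 1.24 for ACT1 and 1.86 to 2.05 and 1.68 to 1.85 for EAF5, the former with overlap, and the part of RNA integrity in the differences was not tested.

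Few genes met the calling rule between the wild types. A gene was called at a limma adjusted p under 0.05, a fold of at least 1.5 and group means more than 100 units apart. This held for 88 of 5447 genes tested (1.62%), of which 63 were higher in BY4742 (1.16%) and 25 lower (0.459%). Without the limits on fold and units, 292 genes had a limma adjusted p under 0.05, and 1198 an unadjusted one. The median log2 difference over all tested genes was −0.015. Only 14 of the 88 differed by at least 8-fold, which were 11 mating-type genes, the markers MET17 and LYS2, and YNL146C-A near MFA2, while 25 differed by 2-fold to 8-fold and 49 by less than 2-fold. The spread was estimated over all 15 arrays, and with the 6 wild-type arrays alone 38 genes were higher and 20 lower, with 32 of the 88 calls lost. With the methods' filter at 600 units, which removes genes that are low in 1 strain, 42 were higher and 8 lower. Both counts also moved with single arrays: without BY4741 replicate 2 there were 100 higher genes, without BY4741 replicate 1 there were 78 lower ones, and without BY4742 replicate 1 there were 41 higher ones.

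**Figure D1:**
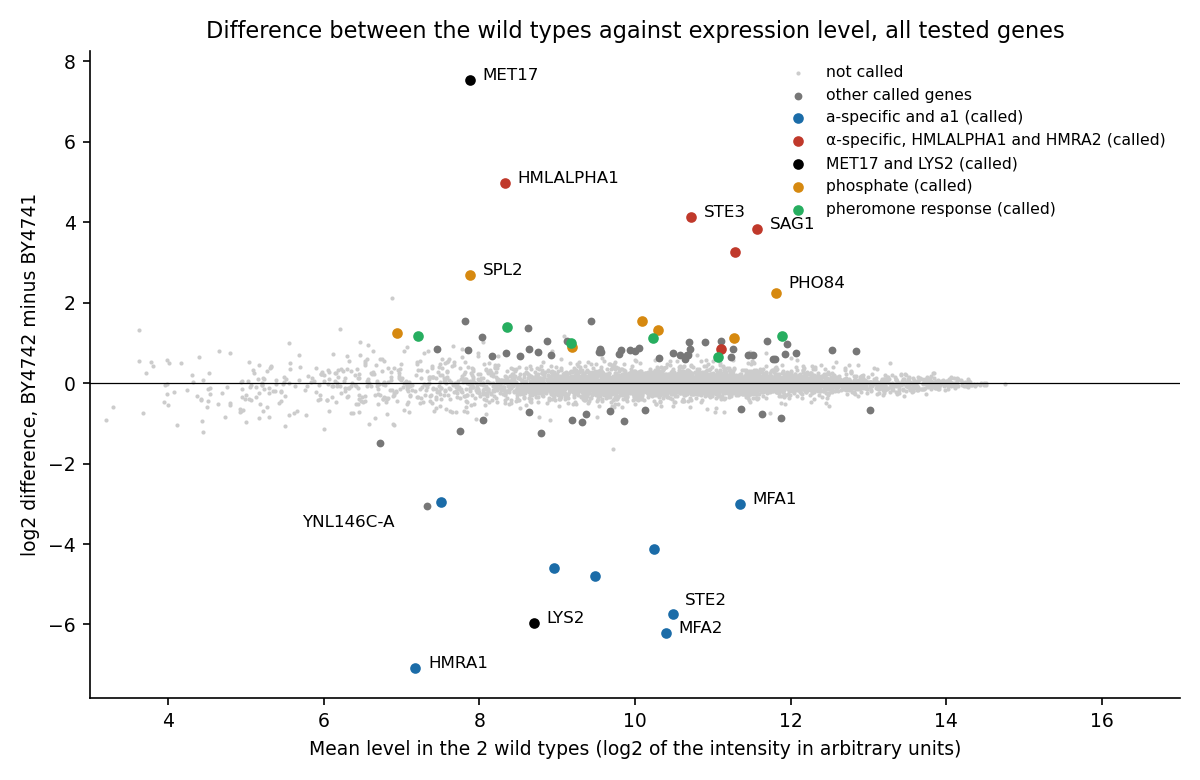
Log2 difference between BY4742 and BY4741 (y axis) against the mean level in both strains (x axis, log2 of the intensity), 1 point per tested gene, with the called genes of each named group in colour. The mating-type genes, MET17 and LYS2 lie far from the other genes, phosphate and pheromone genes lie above them, and nearly all other genes form a narrow band around 0.

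MET17 and LYS2 followed the genotypes, and the HIS3 probe set gave a signal in both strains. MET17 read 20.8, 12.9 and 18.7 units in the BY4741 arrays and 3087, 3080 and 3345 in the BY4742 arrays. The BY4741 values lay at or below the probe sets of URA3, deleted in both strains (20.5 to 33.8 in these arrays), so that MET17 was at least 126-fold higher in BY4742 (adjusted p = 8.93e-13). LYS2 had the opposite pattern, with 3467, 2984 and 3429 units in BY4741 and 47.4, 56.0 and 54.0 in BY4742, a ratio of 62.8. URA3 read 11.5 to 38.6 units and LEU2 84.1 to 236 in the 6 arrays, both low in each strain. The HIS3 probe set read 2576 to 2800 units in BY4741 and 3129 to 3246 in BY4742, a log2 difference of 0.26 ± 0.114 (SE, adjusted p = 0.201). Both strains carry his3∆1, and how much of the gene this allele removes was not examined.

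The signals of the mating cassette probe sets differed between the strains, against the single mating type of the labels. HMRA1, whose sequence also stands at MAT in a cells and encodes a1, read 1470 and 1917 units in BY4741 replicates 1 and 2, with replicate 3 empty. In BY4742 it read 11.6, 11.2 and 14.3, under the URA3 probe sets, a level at least 47.7-fold lower (adjusted p = 2.42e-10). HMLALPHA1 is the α1 gene of the other silent cassette, and its sequence also stands at MAT in α cells. Its probe set read 44.1, 71.7 and 58.1 units in BY4741 and 1801, 1869 and 1678 in BY4742 (log2 difference 4.97 ± 0.135, adjusted p = 6.24e-10). MATALPHA1 had no probe set of its own, so this signal does not tell MAT from the silent cassette. HMRA2, the a2 gene, shares sequence with the α2 gene, and its probe set was high in both strains, at 1471 to 1940 units in BY4741 and 2866 to 3088 in BY4742 (0.84 ± 0.155, adjusted p = 0.00732). The a1 transcript was thus at background in BY4742, and the α1 transcript was 31.3-fold higher there. By these transcripts BY4742 read as type α and BY4741 as type a, although the labels write MATa for both.

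All 7 a-specific genes were lower in BY4742, with a median log2 difference of −4.59. MFA2, an a-factor precursor gene, read 11536, 11156 and 11869 units in BY4741 and 164, 145 and 161 in BY4742 (−6.20 ± 0.0885, adjusted p = 2.84e-14). MFA1, the other a-factor gene, read 7369, 7793 and 7114 against 925, 929 and 901 (−3.01 ± 0.151, adjusted p = 1.91e-08), so the difference of MFA1 was the smaller of the pair although neither gene had overlapping groups. STE2, the α-factor receptor, read 11269 and 9577 units in the 2 BY4741 arrays with a value and 205, 189 and 194 in BY4742 (−5.73 ± 0.113). The genes of the remaining a-cell functions also moved without overlap. BAR1, the protease that degrades α-factor, read 3757 in the only BY4741 array with a value and 127 to 146 in BY4742 (−4.79 ± 0.183), and its call was lost without that array, BY4741 replicate 2, since no value then remained. AGA2, the binding subunit of a-agglutinin, read 2716 and 2178 against 121.7, 90.9 and 92.2 (−4.59 ± 0.201). STE6, the a-factor exporter, read 5874 and 4364 against 302, 274 and 290.5 (−4.13 ± 0.117), and ASG7, a regulator of pheromone signalling in a cells, 442, 454 and 628 against 68.5, 69.9 and 56.2 (−2.96 ± 0.141). The empty BY4741 cells of STE2, STE6, AGA2 and HMRA1 were all those of replicate 3. In RNA of whole cultures, fewer cells of a type and less RNA per cell cannot be told apart.

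The 3 α-specific genes that could be tested were all higher in BY4742. STE3, the a-factor receptor, read 344, 323 and 564 units in BY4741 and 7299, 6662 and 6861 in BY4742 (4.13 ± 0.190, adjusted p = 9.83e-09). SAG1, the α-agglutinin, read 820, 740 and 866 against 12036, 11269 and 11145 (3.83 ± 0.104, adjusted p = 2.05e-11). AFB1, which encodes the barrier to a-factor, read 800.4, 879 and 729 in BY4741 and 7686 in the only BY4742 array with a value (3.26 ± 0.120), and its call rests on that array, BY4742 replicate 2. For AFB1 and BAR1 a strain is represented by 1 array, which the model assumes to vary like the arrays of the other strains. The α-factor genes MF(ALPHA)1 and MF(ALPHA)2 read 52.0 to 95.3 and 108 to 147 units in BY4741 and were empty in all 3 BY4742 arrays, and also in the sus1∆ and thp1∆ arrays, so they were not tested.

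**Figure D2:**
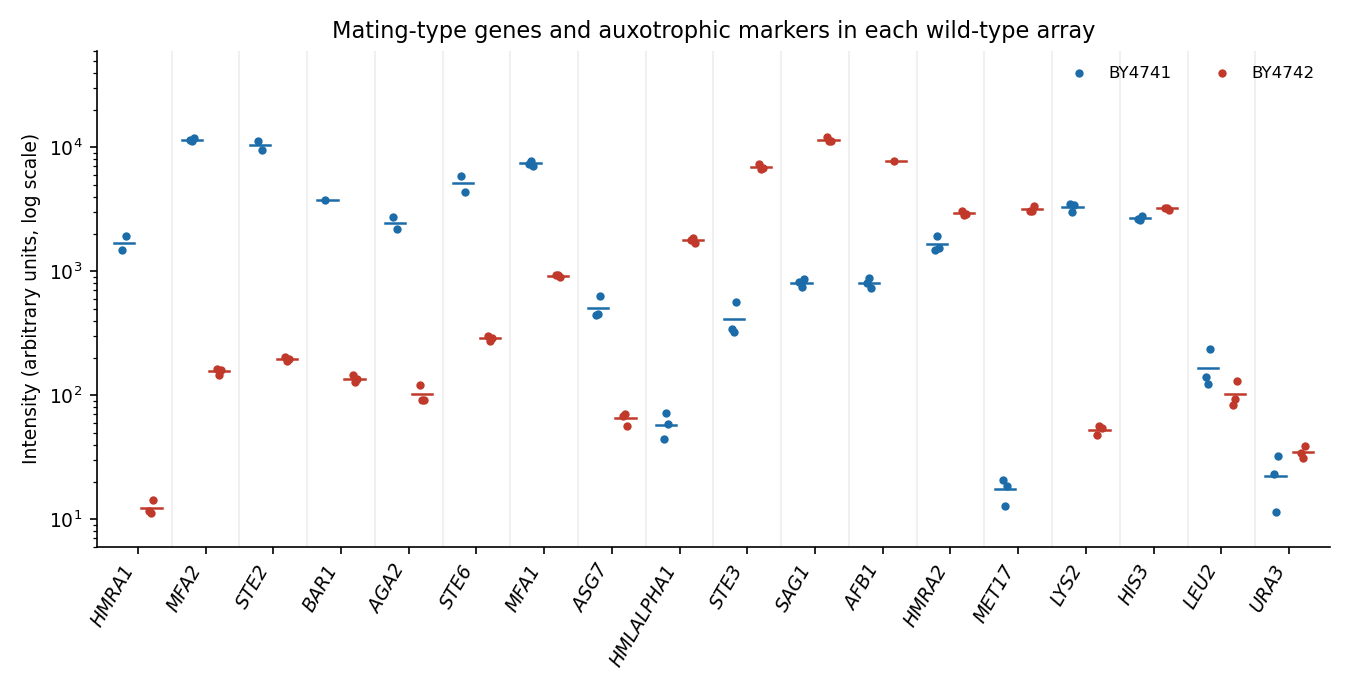
Intensity on a log scale (y axis) of mating-type and marker genes in each wild-type array, with points for arrays (empty cells have none) and lines for group means. From HMRA1 to ASG7 the BY4741 points lie above those of BY4742, from HMLALPHA1 to MET17 below them, and LYS2 is high in BY4741 alone.

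Genes that are expressed in haploids of either type gave no call. None of 11 haploid-specific genes was called by limma (1 had an unadjusted p under 0.05), with a median log2 difference of 0.04 and a range of −0.18 to 0.50. These include the subunits of the pheromone G protein GPA1, STE4 and STE18 (0.11, 0.04 and −0.17), the scaffold STE5 (−0.09), the MAP kinase FUS3 (0.32, adjusted p = 0.166) and HO, the mating-type switching endonuclease gene (0.50, adjusted p = 0.328). The HO log2 difference was 1.04 without BY4741 replicate 1 (adjusted p = 0.0336), when a single BY4741 value remained. RME1, NEJ1, AXL1, RDH54 and AMN1 lay between −0.18 and 0.14. None of 23 genes of meiosis and sporulation was called either (9 at an unadjusted p under 0.05, median −0.08), and the 7 defining sporulation markers, such as IME1 and NDT80, read 66.7 to 693 units over both strains.

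Of 48 measured genes that are the nearest or second nearest on either side of MET17, LYS2 and 10 mating-type genes, 4 were called, beside 1.62% of all genes tested. YNL146W, beside MFA2, read 162, 229.6 and 137 units in BY4741 and 311, 292 and 306 in BY4742 (0.82 ± 0.147, adjusted p = 0.0067), a call lost with the 6 wild-type arrays alone. YNL146C-A, the next gene on that side, read 451 and 467 with replicate 3 empty in BY4741 and 69.0, 48.8 and 50.1 in BY4742 (−3.05 ± 0.239, adjusted p = 9.17e-06), a difference of the opposite sign. GYP8, the neighbour of STE2, which encodes a GTPase-activating protein of Ypt GTPases, was lower in BY4742, with 1445, 1320 and 1466 units against 850.04, 914 and 885 (−0.67 ± 0.120, adjusted p = 0.00643). TKL2, a transketolase gene next to LYS2, read 166, 243 and 279 in BY4741 and 368, 368 and 336 in BY4742 (0.67 ± 0.158, adjusted p = 0.0271), and lost its call without BY4741 replicate 1 or any BY4742 array and with the wild-type arrays alone. On the other side of LYS2, RAD16 of nucleotide excision repair had a log2 difference of 0.19 (adjusted p = 0.372), and the nearest measured genes beside MET17, HRI1 and ACO1, had 0.05 and −0.05.

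The same genes were read in the 9 arrays of the mutants, which add to the estimate of the spread in the comparison of the wild types but not to its means. The mean of sus1∆ and thp1∆ minus sac3∆, the mutants of the BY4742 background against that of the BY4741 background, had 398 of 5442 genes called (7.31%), 249 higher (4.58%) and 149 lower (2.74%). Taken apart, a step added after the data were seen, sus1∆ minus sac3∆ had 18.6% of genes called and thp1∆ minus sac3∆ 4.94%. These comparisons share the sac3∆ arrays and contain the effects of the deleted subunits. The SRB4 3′ over 5′ ratio was 8.49 to 12.0 in sac3∆, 4.59 to 5.16 in sus1∆ and 8.84 to 19.3 in thp1∆. Like BY4742 against BY4741, sus1∆ thus lay below sac3∆ without overlap, while thp1∆ overlapped with sac3∆. The part of RNA integrity in the calls of these comparisons was not tested. The called wild-type genes had the same call in sus1∆ minus sac3∆ for 44 of 63 higher and 16 of 25 lower genes, and in thp1∆ minus sac3∆ for 20 of 60 tested higher and 10 of 25 lower genes.

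A total of 25 genes, 15 higher and 10 lower, had the same call in all 3 comparisons. They comprise MET17 and LYS2, the a-specific genes except ASG7, HMRA1, HMRA2, STE3 and SAG1, the pheromone genes PRM1, FIG1, AGA1, FIG2 and PRM4, the neighbours TKL2, GYP8 and YNL146C-A, and OSW2, YPT53, YLR156W, YGR109W-A and YIL082W-A. GYP8, for example, read 1942 to 2977 units in sac3∆, 1053 to 1099 in sus1∆ and 1251 to 1329 in thp1∆, and TKL2 124 to 157, 490 to 539 and 276 to 355. No phosphate gene was among the 25. For 21 called genes, neither mutant comparison gave a call, 12 of them higher and 9 lower in BY4742.

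The mating-type genes of the mutants followed their backgrounds, but a-specific genes stood higher in thp1∆ than in sus1∆. MFA2 read 14936 to 17134 units in sac3∆, 256 to 296 in sus1∆ and 900.5 to 1112 in thp1∆. STE2 read 11467 to 14786, 399.5 to 432 and 1022 to 1229, and AGA2 2298 to 3635, 203 to 255 and 998 to 1333. ASG7 read 388 to 416 units in sac3∆, 82.4 to 98.7 in sus1∆ and 365 to 484 in thp1∆, so that this gene alone among the 7 was not called between thp1∆ and sac3∆ (0.02, adjusted p = 0.94).

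Some genes induced by pheromone were higher in BY4742. Of 24 genes of the pheromone response, 6 were called higher in BY4742 and none lower, beside 1.16% of all genes called higher. Their median log2 difference was 0.30 beside −0.015 for all genes. PRM1, which acts in the fusion of mating cells, read 236, 139 and 239.7 units in BY4741 and 552, 535 and 492 in BY4742 (1.40 ± 0.237, adjusted p = 0.00456). FIG1, a membrane protein of mating cells, read 101, 86.2 and 108 against 222, 238 and 206 (1.18 ± 0.190, adjusted p = 0.00317). Both sets of arrays were well apart, as were those of the genes for surface proteins. AGA1, the anchor of a-agglutinin, read 2921, 2421 and 2256 units against 6162, 5403 and 5432 (1.17 ± 0.29, adjusted p = 0.0349), and FIG2, an adhesin of the cell wall, 913, 723 and 818 against 1880, 1723 and 1689 (1.11 ± 0.132, adjusted p = 0.000385). PRM3, of nuclear fusion, read 418, 381 and 428 against 856, 769 and 842 (1.01 ± 0.0775, adjusted p = 1.75e-05). PRM4 differed least of the 6, with 1301, 2192 and 1694 units against 2886, 2635 and 2480 (0.65 ± 0.136, adjusted p = 0.0143).

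Not every gene of the response took part. KAR4, PRM5 and PRM6 passed the adjusted p but were under the fold or the 100-unit difference (0.49, 0.55 and 1.35), and the fusion gene FUS1 had 0.75 with an adjusted p of 0.0542. The remaining 14 genes lay between −0.53 and 0.32, among them the transcription factors STE12 and TEC1 (−0.17 and −0.03), the cell cycle inhibitor FAR1 (−0.04) and SST2, which ends the signal (0.32, adjusted p = 0.177). The count of 6 was 4 without BY4742 replicate 1 or 2, and 5 without BY4742 replicate 3 or BY4741 replicate 3. AGA1 lost its call without any single array other than BY4741 replicate 1, and PRM4 without BY4741 replicate 1 or BY4742 replicate 1 or 2 and with the wild-type arrays alone. In the mutants 12 of the 24 were higher and 4 lower in sus1∆ than in sac3∆, and 18 were higher in thp1∆. Of all genes, 18.6% were called in either direction in the former comparison and 4.94% in the latter. FIG1 stood at 64.3 to 121 units in sac3∆, 301 to 365 in sus1∆ and 1332 to 1842 in thp1∆.

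**Figure D3:**
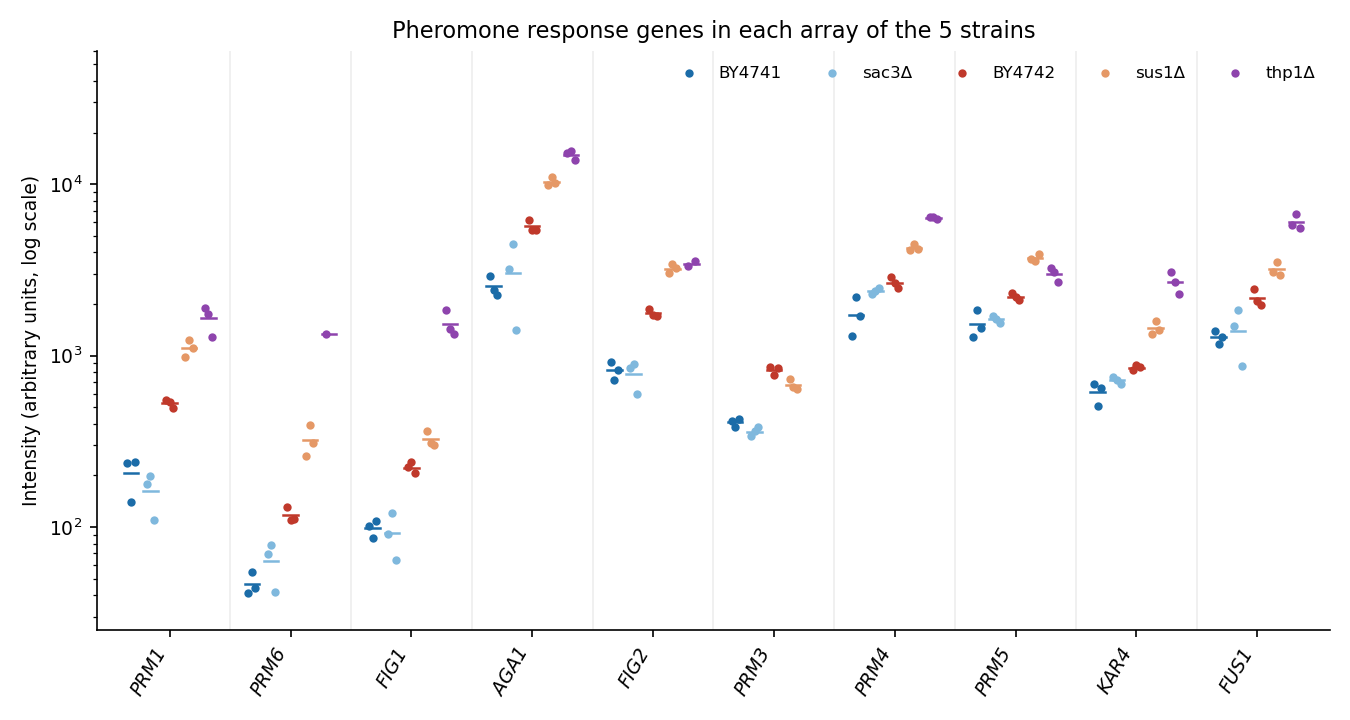
Intensity on a log scale (y axis) of the 9 pheromone response genes with an adjusted p under 0.05 and of FUS1, in each array of the 5 strains, with lines at the strain means. BY4742, sus1∆ and thp1∆ lie above BY4741 and sac3∆ in most genes, and FIG1 is highest in thp1∆ (PRM3 was empty there).

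The largest group of differing genes outside mating and the markers was that of phosphate supply. Yeast cells short of phosphate induce transporters, secreted phosphatases and polyphosphate synthesis through the factor Pho4. Of 14 measured genes of this list 7 were called higher in BY4742 and none lower, beside 1.16% of all genes called higher. The median log2 difference of the 14 was 1.01 beside −0.015 for all genes. SPL2, a regulator of phosphate uptake, read 112, 95.2 and 72.2 units in BY4741 and 609.8, 528 and 647 in BY4742 (2.69 ± 0.258, adjusted p = 3.2e-05). PHO84, the high-affinity phosphate transporter, read 2122, 1507 and 1340 against 8048, 7197 and 8040 (2.25 ± 0.459, adjusted p = 0.013). Each BY4742 array was thus several times above each BY4741 array in both genes. PHO89, the sodium-dependent transporter, had 253, 597 and 276 units in BY4741 and 849, 695 and 815 in BY4742, and missed the call (1.18 ± 0.355, adjusted p = 0.0757).

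The secreted acid phosphatases moved with the transporter. PHO5 read 625, 659.6 and 623 units in BY4741 and 2061, 1643 and 1881 in BY4742 (1.54 ± 0.117, adjusted p = 2.81e-06), and PHO11 939.8, 739 and 704 against 2030, 1762 and 2115 (1.32 ± 0.164, adjusted p = 0.000378). PHO11 has a near-identical relative, PHO12, so its probe set may read both. Of the polyphosphate synthesis complex, VTC3 was called, with 1800, 1653 and 1567 units against 3689, 3434 and 3838 (1.13 ± 0.135, adjusted p = 0.000268). Its partners VTC4, VTC1 and VTC2 had 0.49 (adjusted p = 0.0039, under the fold), 0.37 (adjusted p = 0.0614) and 0.05. PHM6 read 87.4, 75.8 and 76.3 against 190, 181 and 196 (1.24 ± 0.134), and PHM8, a phosphatase of lysophosphatidic acid and nucleotides, 347, 437 and 503 against 833, 788 and 755 (0.90 ± 0.156, adjusted p = 0.00538). The vacuolar phosphatase PHO8, the kinase inhibitor PHO81 and the glycerophosphoinositol transporter GIT1 had 0.31, 0.17 and −0.04, none of them called. PHO84 lost its call without BY4742 replicate 1 or 3, and the other 6 kept theirs without any single array.

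Of the 7 called phosphate genes, 5 had the same call between sus1∆ and sac3∆ and 1 between thp1∆ and sac3∆. PHO84 read 155 to 904 units in sac3∆, 5903 to 10006 in sus1∆ and 89.8 to 101 in thp1∆. SPL2 read 34.1 to 52.3, 319 to 684 and 20.0 to 22.4, and PHO5 344 to 473, 578 to 726 and 313 to 337. For PHO84 and SPL2, sus1∆ was thus near BY4742, and both sac3∆ and thp1∆ were below every BY4741 array. PHO5 in sus1∆ was at the level of BY4741. Between sus1∆ and sac3∆ 7 of the 14 genes were higher, and between thp1∆ and sac3∆ 1 was higher (PHM8) and 1 lower (PHO84, −2.13, adjusted p = 0.0048). Of all genes, 18.6% and 4.94% were called in either direction in these comparisons. The difference of PHO84 between thp1∆ and sac3∆ departed from that between the wild types by −4.39 ± 0.649 on the log2 scale (limma adjusted p = 0.00126 for the difference of both contrasts). PHO84 was picked for its opposite calls, so this p-value adds nothing to them.

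**Figure D4:**
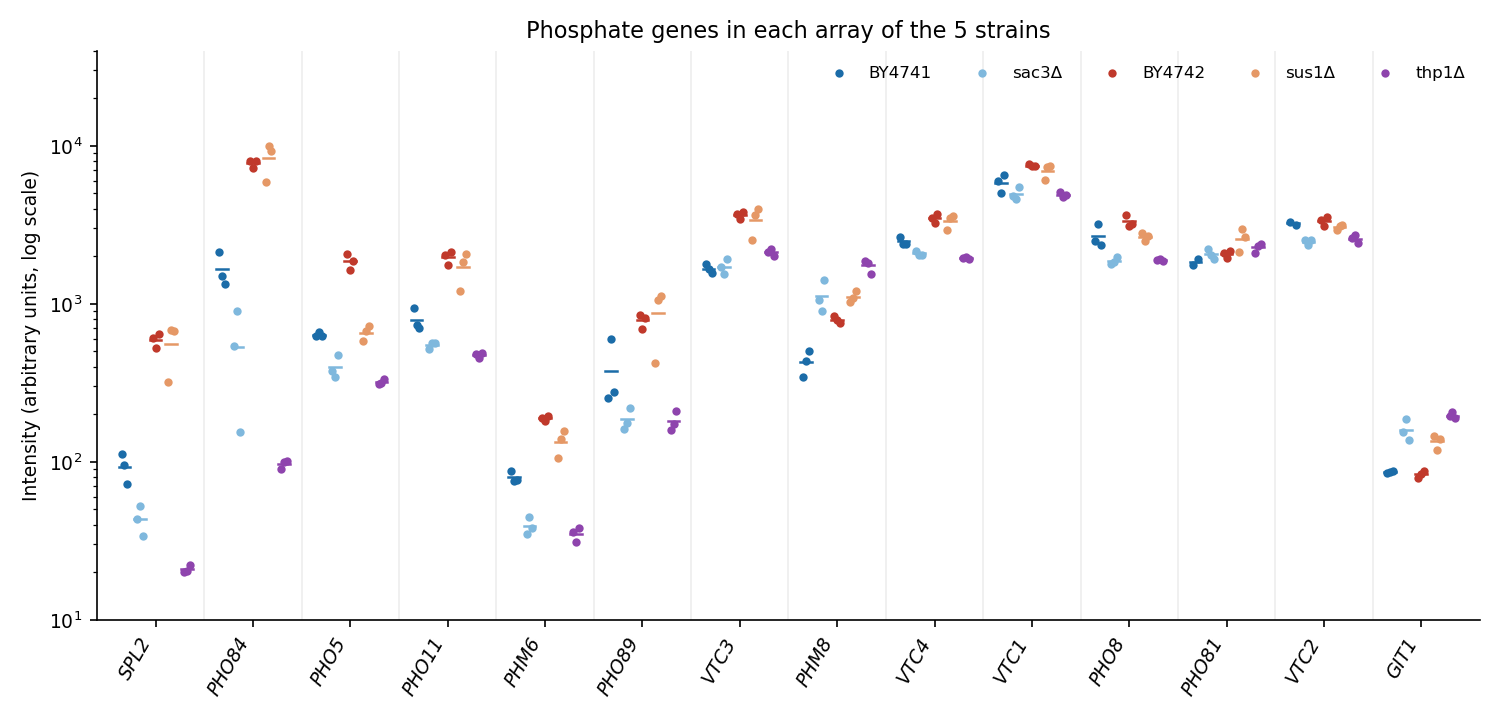
Intensity on a log scale (y axis) of the 14 phosphate genes in each array of the 5 strains, ordered by the difference between the wild types, with lines at the strain means. From SPL2 to PHM8 the BY4742 points lie above those of BY4741. In SPL2 and PHO84 sac3∆ and thp1∆ lie below BY4741, and sus1∆ lies high.

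In the pathway of the deleted LYS2 a single further gene was called. Of the other 8 measured genes of lysine synthesis 7 had a negative log2 difference, with a median of −0.38, and only LYS9 was called. LYS9, the saccharopine dehydrogenase of the step after Lys2, read 4528, 4005 and 3947 units in BY4741 and 2389, 2464 and 2436 in BY4742 (−0.77 ± 0.0897, adjusted p = 0.000196), without overlap. LYS12 and LYS21 passed the adjusted p below the fold (−0.39, adjusted p = 0.0161, and −0.42, adjusted p = 0.026). LYS1 had −0.43 (adjusted p = 0.0785), LYS20 −0.37 (adjusted p = 0.0638), LYS5 −0.11 and LYS4 −0.08, while LYS14, the activator of the pathway, had 0.07. Besides LYS2, the only lysine gene called between the mutants was LYS20, lower in thp1∆ than in sac3∆ (−0.70, adjusted p = 0.000575).

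The sulfur genes around MET17 gave no further call. Among 38 tested genes in the lists of sulfate assimilation, methionine and cysteine synthesis, sulfur regulators, and uptake and salvage of sulfur compounds, the only call was MET17 itself. The medians of these lists were −0.03, 0.004, −0.0003 and 0.14. MET14, the adenylylsulfate kinase, was the only other member past the adjusted p, at 1121 and 1228 units in BY4741 with replicate 3 empty and 1423 to 1462 in BY4742 (0.30, adjusted p = 0.0111, under the fold). MET3, the ATP sulfurylase, had −0.24 (adjusted p = 0.0579), the sulfonate dioxygenase gene JLP1 0.37 (adjusted p = 0.0501), and the methionine permease MUP1 0.15. MUP3 had 0.50 with 1 BY4741 array apart from the others (1221, 3237 and 1318 units), and was called at 0.95 without that array, replicate 2. The regulators MET4, MET28, MET30, MET31, MET32 and CBF1 lay between −0.21 and 0.29.

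Smaller groups of metabolic and stress genes contained 1 to 3 calls each. In arginine synthesis ARG1, the argininosuccinate synthetase, read 1541, 1576 and 1481 units in BY4741 and 3068, 3122 and 3276 in BY4742 (1.04 ± 0.272, adjusted p = 0.0429), and ARG3, the ornithine carbamoyltransferase, 415, 335 and 398 against 607, 635 and 606 (0.69 ± 0.166, adjusted p = 0.0299). All 7 measured genes of this list had positive differences, but without any of the 6 arrays at most 1 of the 2 was still called, and with array weights neither was. Among 26 heat shock and chaperone genes, BTN2, HSP30 and the small heat shock protein gene HSP42 were higher (1.06, 0.80 and 0.74). The list had 6 calls without BY4741 replicate 3, 1 (BTN2) with equal array medians or after quantile normalisation, and 0 with the 6 wild-type arrays alone or without BY4742 replicate 1. HSP30 and HSP42 also lost their calls without BY4741 replicate 1 or any BY4742 array and under the replicate block, and HSP30 without BY4741 replicate 2. HSP42 read 2120, 4059 and 4018 units in BY4741 against 5412 to 5485 in BY4742.

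Single members were called in 4 further lists and 2 members in that of iron. FIT1, a wall mannoprotein that retains iron-siderophores, read 760.1, 842 and 743 units in BY4741 and 1335, 1326 and 1390 in BY4742 (0.79 ± 0.125, adjusted p = 0.00285), while ATX1, a copper chaperone, was lower (−0.63 ± 0.161, adjusted p = 0.0383) and lost its call without BY4741 replicate 2 or any BY4742 array and with the wild-type arrays alone. INO2, an activator of phospholipid synthesis genes, read 310, 300.1 and 277 against 560.1, 531 and 508 (0.85 ± 0.130, adjusted p = 0.00219), although INO1, its best known target, had −0.03. PCK1, the phosphoenolpyruvate carboxykinase of gluconeogenesis, had 0.86 (adjusted p = 0.0018) and was not called with the 6 wild-type arrays alone, and CWP1, a wall mannoprotein, −0.88 (adjusted p = 0.0157), the latter without a call if BY4741 replicate 3 or any BY4742 array was left out. The other list with a single call was that of methionine synthesis with MET17.

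**Figure D5:**
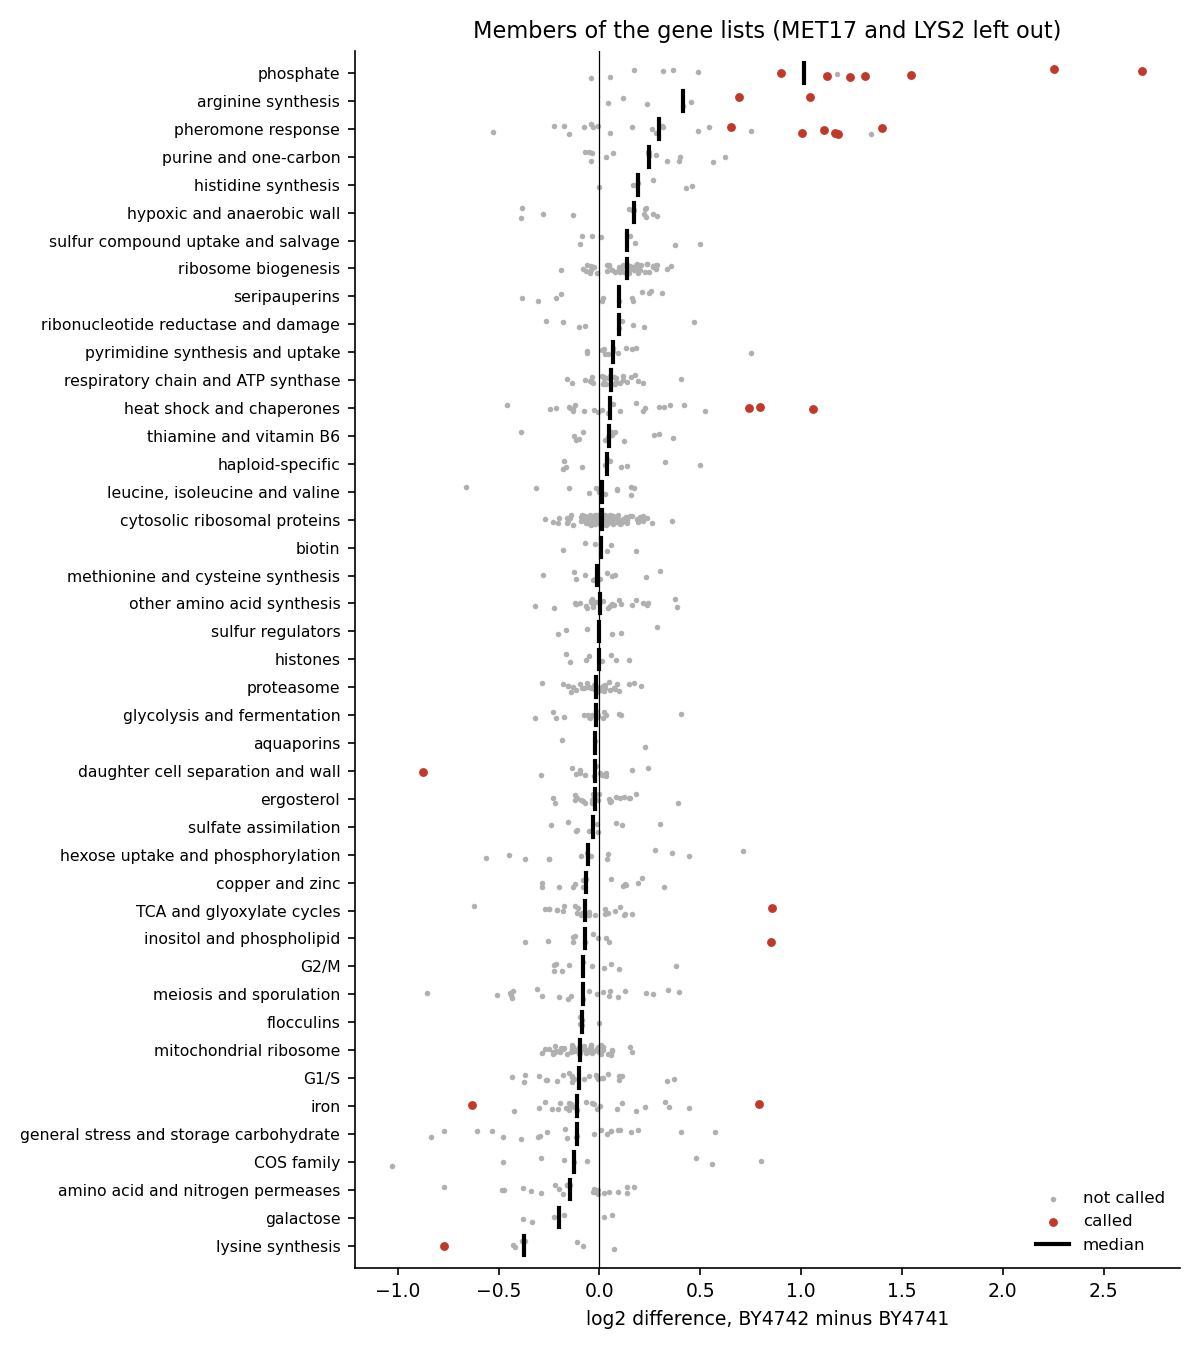
Log2 difference between BY4742 and BY4741 (x axis) of each tested member of 43 gene lists, with called genes in red and the list median as a line; MET17 and LYS2 are left out of the points and medians. The phosphate list lies farthest to the right with 7 called members, and lists such as the cytosolic ribosomal proteins lie close to 0.

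In 33 of 47 lists no gene was called. These held 682 tested genes, of which 125 had an unadjusted p under 0.05 and 16 an adjusted one, and their medians lay between −0.20 and 0.24. They include 128 genes of cytosolic ribosomal proteins (median 0.01), 51 of ribosome biogenesis (0.14), 34 of the proteasome (−0.02), 31 of the respiratory chain and ATP synthase (0.06), 19 of glycolysis and fermentation (−0.02) and 26 of ergosterol (−0.02). Leucine, isoleucine and valine synthesis, pyrimidine synthesis and histidine synthesis, the pathways of the alleles that the strains share, were without calls as well (medians 0.01, 0.07 and 0.19).

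Of the 88 called genes 49 belong to none of the lists. The largest positive differences among them were those of BSC1, YGR109W-A, YMR317W and YPT53. BSC1 read 466, 637 and 180 units in BY4741 and 1117, 988 and 1236 in BY4742 (1.56 ± 0.403, adjusted p = 0.0415), but its call was lost without BY4741 replicate 3 or any BY4742 array, with array weights and with the wild-type arrays alone. YGR109W-A read 132, 159.5 and 105 against 428, 335 and 389 (1.55 ± 0.279, adjusted p = 0.0067), and YMR317W 218, 258 and 263 against 682, 583 and 641 (1.37 ± 0.147, adjusted p = 0.000103), both kept without any single array. YPT53, a Rab GTPase of endocytosis, read 104, 228 and 211 against 445, 386 and 316 (1.14 ± 0.239, adjusted p = 0.0147), a call lost without BY4742 replicate 1 or 2 and with the wild-type arrays alone. In the mutants YMR317W read 97.6 to 123 units in sac3∆, 2970 to 4536 in sus1∆ and 98.5 to 118 in thp1∆, and the probe set of YGR109W-A 70.8 to 83.3, 1236 to 1375 and 277 to 699.6.

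Genes in no list that were lower in BY4742 included SIP18, RRD2 and APN2. SIP18, a gene of desiccation stress, read 253, 296 and 430 units in BY4741 and 147, 130.2 and 145 in BY4742 (−1.18 ± 0.158, adjusted p = 0.00073). RRD2, an activator of protein phosphatase 2A, read 1243, 1067 and 1549 against 638, 636 and 732 (−0.93 ± 0.112, adjusted p = 0.000268), and APN2, an apurinic endonuclease of DNA repair, 699, 740 and 981 against 398, 429.8 and 450.2 (−0.91 ± 0.106, adjusted p = 0.000215). Under the same calling rule, 13 settings were run over all genes: both scalings, the wild-type arrays alone, array weights, a trended prior, the mean of probe sets, the replicate block and each array left out. These 3 genes kept their calls in all of them, as did 42 of the 88 called genes, 28 higher and 14 lower, but RRD2 and APN2 are under a fold of 2. The largest negative differences among genes in no list, apart from YNL146C-A, were those of YGR035W-A (−1.49, adjusted p = 0.0429), with 108 and 262 units in BY4741 and 51.9 to 67.0 in BY4742, and YLR154C-H (−1.24, adjusted p = 0.045), with 546, 683 and 832 against 271 to 299. Both lost their calls with array weights and without BY4741 replicate 2 or any BY4742 array, YLR154C-H also without BY4741 replicate 3, and YGR035W-A with the wild-type arrays alone and with the replicate block. YIR018C-A (−0.97, adjusted p = 0.013), also among the 15 lowest, was not called without BY4741 replicate 2 or BY4742 replicate 1 or with the wild-type arrays alone.

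TDA6 and YDR222W, higher in BY4742, had the opposite call between sus1∆ and sac3∆. TDA6 read 1226, 1227 and 1282 units in BY4741, 2399, 2155 and 2140 in BY4742 (0.84 ± 0.0905, adjusted p = 0.000103), 4726 to 5269 in sac3∆ and 988 to 1106 in sus1∆. YDR222W read 1226, 822 and 1614 in BY4741, 1840, 1984 and 1936 in BY4742 (0.71 ± 0.187, adjusted p = 0.0455), 1690 to 2264 in sac3∆ and 1193 to 1252 in sus1∆. The call of YDR222W between the wild types was kept in only 6 of the 13 settings, and was lost with array medians set equal, after quantile normalisation, with the 6 wild-type arrays alone, and without BY4741 replicate 2 or any BY4742 array.

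No chromosome stood apart in level. The median log2 difference of the genes of a chromosome lay between −0.03 on chromosome IV and 0.03 on chromosome III, and the share of called genes between 0.766% on chromosome VIII and 4.05% on chromosome III. The 6 called genes of chromosome III, of 148 tested, were HMRA1, HMRA2, HMLALPHA1, FIG2, HSP30 and MRC1, so that 3 of them belong to the mating cassettes.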

How the data were processed

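The authors scanned the arrays and computed model-based values with dChip, normalised to an invariant set of perfect-match probes, and deposited them as a linear intensity in arbitrary units with some cells empty, outliers being treated as missing. The version of dChip was not given in the sources used. The table held 5900 probe sets: 184 array controls, 5498 with 1 gene in the platform annotation and 218 others, which were left out. For 47 genes with several probe sets the set of highest mean log2 value was used. Annotation R64 served for gene names and gene order only. Sequences were not used here. Median intensities of the wild-type arrays were 1260 to 1354 units, and the small number of arrays limits precision.

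The log2 of each deposited intensity was taken without further scaling, with empty cells missing and no filter on low values. A model with 5 strains was fitted to the 15 arrays by lmFit and eBayes of limma 3.58.1 (R 4.3.3), with 10 residual and 2.88 prior degrees of freedom, and Benjamini-Hochberg adjustment ran over all genes tested. The fold of 1.5 and the difference of 100 units are those of the study's methods, which also removed genes under 600 units in 50% of arrays. Since that filter removes genes that are low in the 3 arrays of 1 strain, it is an alternative here. Errors are the model's SE unless named SD. Bounds for genes at background were set against the highest URA3 probe set of each array. The fit was tested on simulated data with known changes. There each gene had the same spread in every strain, so the unequal spread of the wild types was not covered.

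The comparison, the gene lists and the genes described were chosen with earlier results of these data known. Lists, from textbook knowledge, are described by counts and medians without a test. Genes were named if they were among the 15 largest calls in either direction, belonged to the marker, mating-type, haploid, lysine or sulfur lists, were among up to 4 calls of another list, or lay beside MET17 or LYS2. Other named genes were chosen after their values were seen, as were the separate comparisons of sus1∆ and thp1∆ with sac3∆. The alternatives were the filter, scaling, arrays in the fit, array weights, prior variance, empty cells, probe sets, replicate number, calling rule, the methods' criteria and leaving out each array.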

Additional observations from a re-analysis of the deposited data

Results flagged for a closer look

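Differences of 3 genes went 1 way between the wild types and the opposite way between mutants of the same backgrounds, and the difference of both contrasts was tested in limma over all genes. The genes were picked for their opposite calls, so a departure was near certain and its p-value adds nothing to those calls. TDA6 was higher in BY4742 (0.84) and lower in sus1∆ than in sac3∆ (−2.25), a departure of −3.09 ± 0.128 (SE, adjusted p = 7.97e-09). YDR222W had 0.71 and −0.63, a departure of −1.34 ± 0.264 (adjusted p = 0.00218), but its call between the wild types was kept in only 6 of 13 settings. PHO84 had 2.25 between the wild types and −2.13 between thp1∆ and sac3∆, a departure of −4.39 ± 0.649 (adjusted p = 0.00126). The mutant contrasts also contain the deleted subunits, and the part of each was not tested. Groups of 3 arrays are too small for a search for outlying samples.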

How the results depend on the processing

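There were 63 genes called higher in BY4742 and 25 genes called lower in BY4742. In the order higher and lower, the counts were 59 and 28 with equal array medians, 58 and 33 after quantile normalisation, 58 and 19 with array weights, 67 and 28 with a trended prior, 65 and 25 with the mean of probe sets. They were 42 and 8 with the filter at 600 units, 61 and 16 for genes without empty cells, 38 and 20 with the 6 wild-type arrays alone, 22 and 7 with these arrays and the filter (chosen after seeing the data), 149 and 143 by the adjusted p alone, and 26 and 13 at a fold of 2. Leaving out an array gave 41 to 100 higher genes (highest without BY4741 replicate 2, lowest without BY4742 replicate 1) and 19 to 78 lower ones (highest without BY4741 replicate 1). The methods' criteria, a test per gene on the linear values with unadjusted p, gave 32 and 6, and 0 and 0 after Benjamini-Hochberg adjustment, where 476 genes had an unadjusted p under 0.05. Of the mating-type genes called, 4 of 13 passed the filter, which removes genes low in 1 strain. The causes of the other changes were not tested. No named gene changed direction in a setting that called it. With the replicate number as a block there were 62 and 24 calls. Deviations of arrays with the same number correlated at −0.24, −0.21 and −0.10 across 3637 genes, no sign of pairing by number. Arrays of different number correlated at 0.35 (BY4741 replicate 1 with BY4742 replicate 3), 0.34 (replicates 2 and 1) and 0.26 (replicates 3 and 2). The other pairs had −0.22, −0.13 and −0.05. Deviations from a mean of 3 arrays depend on each other, and pairing in another order was not tested. The other scalings moved the median of all genes from −0.015 to −0.03 at most. At an unadjusted p under 0.05 there were 1198 genes, of which 292 passed the adjustment. Low probe sets, such as URA3 at 11.5 units, limit folds to bounds.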
